A study of Homo sapiens with 6 samples.

Results

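The collagen genes examined here were the protein-coding genes of the count table whose symbol reads COL, a number, A and a number, without COL17A1. The rule used symbols and no measured value, and it found 37 of the 25349 genes in the table. COL11A1, COL9A1, COL6A5, COL6A6, COL10A1 and COL25A1 were not analysed here. A collagen is a triple helix of alpha chains, each chain encoded by its own gene. Type IV chains assemble into the sheet-like network of basement membranes, fibrillar chains (types I, II, III, V, XI, XXIV and XXVII) form the rope-like fibrils of connective tissue, and FACIT chains (fibril-associated collagens with interrupted triple helices) sit on the surface of those fibrils. Squamous epithelial cells rest on a basement membrane and secrete part of it themselves, together with type VII collagen, the anchoring fibril that ties it to the stroma.

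SCC-9 is a human cell line from a squamous carcinoma of the tongue. Bulk poly(A) RNA-seq compared 3 libraries of cells given a nonspecific siRNA (siNC) with 3 libraries of cells in which exon 7 of MKI67 was targeted (siE7), to look for genes that respond to loss of the MKI67 isoform with exon 7. MKI67 encodes Ki67, a nuclear protein of dividing cells. Both groups were transfected with 10 nM siRNA and Lipofectamine 3000 on Day 0 and Day 2, were grown with 400 ng/mL hydrocortisone, and were lysed for RNA on Day 4. The study made several exon 7 siRNAs and the labels do not name the one sequenced, so siE7 stands here for 1 siRNA treatment of 1 cell line.

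Levels are given as CPM, counts per 1000000 counts of a library after TMM scaling, and changes as the log2 fold change (log2FC) of siE7 over siNC with its standard error (SE) from edgeR's quasi-likelihood test. Adjusted p-values were Benjamini-Hochberg values over all 14661 genes tested, and genes with an adjusted p under 0.05 and an absolute log2FC above 1 are called DEGs, differentially expressed genes. MKI67 itself stood at 1072, 1029 and 1077 CPM in siNC and at 112, 124 and 108 CPM in siE7 (log2FC -3.21, SE 0.114, edgeR adjusted p = 6.7e-08). Every siE7 library lay far below every siNC library. The 6 libraries held 25608192 to 29550264 counted reads. All 10 squamous epithelial markers were tested, with a summed level of 23428 to 24934 CPM in siNC and 21609 to 28029 CPM in siE7, a sum in which KRT14 and SFN weigh most. At an adjusted p under 0.05, 5 of these 10 markers were lower in siE7, among them CDH1 (log2FC -1.03) and EPCAM (-0.77). Another 2 of the 10 were higher, among them PERP (1.17). Over all tested genes 16.0% were lower and 18.0% higher, so the markers were lower more often than genes at large. Of 10 fibroblast markers only FAP, FBLN1 and MFAP5 were tested, and their list summed to 70.0 to 70.8 CPM in siNC and 42.1 to 59.5 CPM in siE7. FBLN1 held most of that sum, at 62.8 to 64.7 CPM in siNC and 35.4 to 55.3 CPM in siE7 (log2FC -0.60, SE 0.165, edgeR adjusted p = 0.016). FAP was lower (log2FC -0.57) and MFAP5 higher (log2FC 0.85) in siE7 without overlap, and neither was called. THY1, POSTN, LUM and DPT were at 0 in 5 of 6 libraries each. PDGFRA and PDGFRB had 0 to 4 reads in a library, and DCN had 0, 1 and 2 reads in siNC and 8, 11 and 19 in siE7, without overlap. None of 5 endothelial markers was tested (0.254 to 0.568 CPM summed in any library). The part of these cell types in the collagen results was not tested. siE7 replicate 1 stood apart from the other siE7 libraries along the second principal component. Values without it are given for collagen genes whose call or direction turns on it, and for some of the other listed genes. The labels do not say that replicates came from separate cultures, so p-values measure the spread between these samples. In bulk RNA, fewer cells of a kind and less RNA per cell cannot be told apart.

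The 6 type IV genes lie in head-to-head pairs, each pair transcribed away from a short shared stretch. For COL4A1/COL4A2 this holds by the RefSeq starts. The annotated COL4A2 gene begins at chr13:110305812, inside COL4A1, so the stretch shown lies within it. The shared stretch is shown for each pair because the results below turn on whether its genes moved together. The sequences are RefSeq promoter sequence on build GRCh38.p14, written along the plus strand, and capitals mark matches on either strand to the GC box, searched as GGGCGG, or to the CCAAT box. The COL4A1/COL4A2 stretch covers chr13:110307158-110307257 and stops before the first annotated COL4A2 exon in it, the COL4A4/COL4A3 stretch covers chr2:227164454-227164623, and the COL4A6/COL4A5 stretch covers chrX:108439588-108439837, the 250 bases next to COL4A5 in a gap of 340 bases whose rest was neither shown nor searched.
COL4A1/COL4A2: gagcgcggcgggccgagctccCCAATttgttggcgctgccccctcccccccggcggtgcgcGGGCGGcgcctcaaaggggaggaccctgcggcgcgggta
COL4A4/COL4A3: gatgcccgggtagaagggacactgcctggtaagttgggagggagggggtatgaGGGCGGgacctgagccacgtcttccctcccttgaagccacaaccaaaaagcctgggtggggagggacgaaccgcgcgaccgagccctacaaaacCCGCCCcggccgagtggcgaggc
COL4A6/COL4A5: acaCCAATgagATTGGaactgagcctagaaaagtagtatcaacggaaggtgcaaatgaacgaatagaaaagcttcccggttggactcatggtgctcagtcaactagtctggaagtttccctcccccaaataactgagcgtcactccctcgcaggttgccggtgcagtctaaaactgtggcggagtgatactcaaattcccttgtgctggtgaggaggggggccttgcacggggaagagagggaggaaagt
The COL4A1/COL4A2 stretch of 100 bases held 1 GGGCGG and 1 CCAAT, letters that 31.3% and 18.1% of 35116 promoters also hold in the 100 bases before their start. Unlike those windows, this stretch ends short of the RefSeq COL4A2 start at 110307284. The COL4A4/COL4A3 stretch of 170 bases held 2 GGGCGG, as 1 or more occur in 38.3% of promoters over that length, and no CCAAT. The COL4A6/COL4A5 stretch of 250 bases held 2 CCAAT, against 32.0% of promoters with at least 1, and no GGGCGG. Neither TATAAA nor TGANTCA (the AP-1 motif) was found in any of them. No matches overlapped one another, and a match is a description of the sequence only.

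Of the 37 collagen genes, 25 passed the filter on low counts and 12 did not. Among the 25, COL5A2, COL4A3 and COL4A4 were DEGs higher in siE7, and COL18A1, COL12A1 and COL13A1 were DEGs lower in siE7, that is 12.0% in each direction against 7.38% and 4.84% of all tested genes. Without the condition on fold, 5 collagen genes were higher (20.0%, against 18.0% of all tested genes) and 7 were lower (28.0%, against 16.0%). The share that rose was near that of the transcriptome. The libraries of the groups did not overlap for 5 genes higher in siE7 and 11 lower, where 24.9% and 22.7% of all tested genes separated the same way. The median log2FC of the 25 was -0.23, beside 0.08 for all tested genes. COL4A3 passed the filter only through siE7 and COL18A1 only through siNC, so both had to differ to enter the test when low in the other group. Among the 22 collagen genes above the filter's CPM in all 6 libraries, 2 were DEGs in each direction (9.09%, against 5.52% higher and 4.69% lower of the 13170 such genes overall), and 4 were higher (18.2%, against 17.3%) and 6 lower (27.3%, against 17.2%) at an adjusted p under 0.05. siE7 replicate 1 was the highest siE7 library for 16 of the 25 collagen genes (64.0%, against 43.2% of all tested genes). Without it, 12 collagen genes were lower at an adjusted p under 0.05 in place of 7 and 5 were higher, against 29.5% lower and 28.9% higher of all genes tested in that fit. The added genes were COL4A1, COL4A5, COL4A6, COL5A1 and COL8A1, and COL4A2 (log2FC -1.13) and COL6A1 (log2FC -1.10) then passed the fold condition while COL13A1 (log2FC -0.96) did not. Only 1 collagen DEG higher in siE7, COL5A2, was left without siNC replicate 2, without siNC replicate 3 or without siE7 replicate 2.

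**Figure D1:**
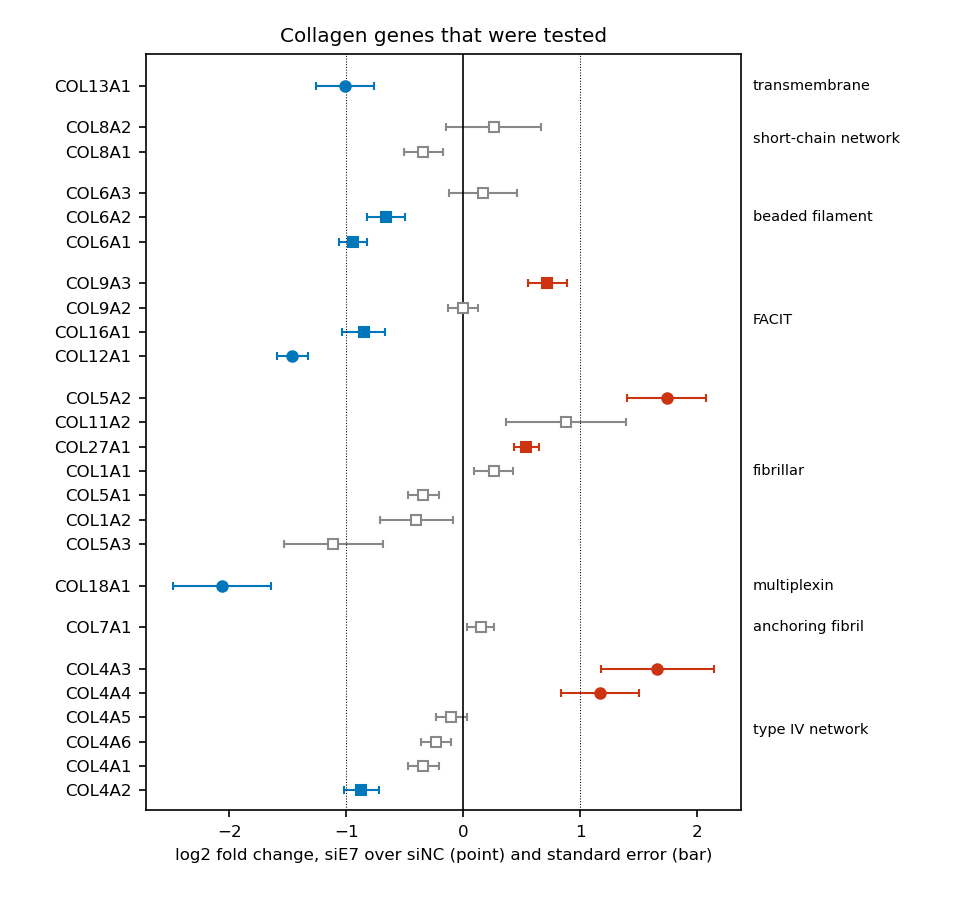
Log2 fold change of siE7 over siNC (horizontal axis, points) with its standard error (bars) for the 25 collagen genes that were tested, grouped by class (right). Filled circles are DEGs, filled squares have an adjusted p under 0.05 only, open squares were not called, red is higher and blue lower in siE7, and dotted lines mark a log2FC of -1 and 1. COL5A2, COL4A3 and COL4A4 lie farthest to the right and COL18A1 farthest to the left, at -2.06.

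Type IV collagen did not move as 1 group. All 6 chains were tested: COL4A3 and COL4A4 rose, COL4A2 fell, and COL4A1, COL4A5 and COL4A6 did not pass the test. COL4A2 (ENSG00000134871.19, chr13:110305812-110513209), a chain of the ubiquitous type IV network, stood at 535, 495 and 563 CPM in siNC and 366, 261 and 247 CPM in siE7. The groups did not overlap, and siE7 replicate 1 was the nearest to siNC. Its fall was to 0.548 of the siNC level (531 ± 34.6 against 291 ± 64.9 CPM, mean ± SD, n = 3; log2FC -0.87, SE 0.149, edgeR adjusted p = 0.0012). COL4A1 (ENSG00000187498.16), its partner chain across the shared stretch, stood at 134, 123 and 131 CPM in siNC and 121, 97.9 and 87.3 CPM in siE7. After TMM scaling every siE7 library was lower than every siNC library, but siE7 replicate 1 was only just so. The log2FC of COL4A1 was -0.34 (SE 0.132, edgeR adjusted p = 0.068) and, without siE7 replicate 1, -0.54 (edgeR adjusted p = 9.2e-10). Scaled by library totals alone it was -0.18 (edgeR adjusted p = 0.21).

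The reads of COL4A2 over those of COL4A1 came to 4.0, 4.04 and 4.29 in siNC and to 3.01, 2.66 and 2.83 in siE7. All siE7 ratios were below all siNC ratios, so reads of the pair shifted towards COL4A1, by 0.54 on the log2 scale. A two-sided exact permutation test over the libraries gave p = 0.1, the smallest that 3 against 3 libraries allow, and 0.16 after Benjamini-Hochberg adjustment over the 8 chain pairs computed.

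COL4A3 and COL4A4, chains of the type IV network of kidney, lung and a few other basement membranes, were both near the lower limit of detection. COL4A3 (ENSG00000169031.21, chr2:227164624-227314792) had 6, 3 and 7 reads in siNC and 17, 24 and 18 reads in siE7, that is 0.243, 0.120 and 0.265 CPM and 0.574, 0.870 and 0.589 CPM. The groups did not overlap, at single-digit counts in siNC. Its log2FC was 1.66 (SE 0.483, edgeR adjusted p = 0.020), and the call was lost without siNC replicate 1, 2 or 3 or siE7 replicate 2 (edgeR adjusted p 0.052 to 0.097) and with DESeq2 (adjusted p = 0.076). Over 838 bases, or 6.82% of its exons, COL4A3 overlaps MFF-DT on the other strand, a noncoding gene with 5, 6 and 7 reads in siNC and 6, 27 and 19 in siE7. The libraries were stranded, but whether the counting used strand is not given in the sources used here, and without it reads of both genes cannot be told apart.

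COL4A4 (ENSG00000081052.14, chr2:227002714-227164453) stood at 1.26, 0.721 and 0.568 CPM in siNC and 1.79, 1.99 and 1.93 CPM in siE7. siE7 libraries were close to each other and above all siNC libraries, which spread over a wide range. COL4A4 rose 2.24-fold (log2FC 1.17, SE 0.336, edgeR adjusted p = 0.020), a call lost without siNC replicate 2, siNC replicate 3 or siE7 replicate 2, with adjusted p up to 0.091. The ratio of COL4A3 to COL4A4 was 0.194, 0.167 and 0.467 in siNC and 0.321, 0.436 and 0.305 in siE7, and the groups overlapped (log2 difference 0.50, exact permutation p = 0.4, adjusted over 8 pairs 0.40).

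The X-linked pair hardly differed between groups. COL4A5, the chain that joins COL4A3 and COL4A4 in one network and COL4A6 in another, stood at 21.8, 21.9 and 23.0 CPM in siNC and 22.7, 19.8 and 19.8 CPM in siE7. COL4A6 stood at 53.1, 50.9 and 54.4 CPM in siNC and 52.2, 42.5 and 40.2 CPM in siE7. In both genes siE7 replicate 1 fell among the siNC libraries and the other siE7 libraries were lower. Neither passed the test (COL4A5 log2FC -0.10, SE 0.131, edgeR adjusted p = 0.59, and COL4A6 log2FC -0.23, SE 0.128, edgeR adjusted p = 0.18), and without siE7 replicate 1 both were lower with log2FC -0.23 (edgeR adjusted p = 0.037) and -0.41 (edgeR adjusted p = 6.4e-06). Scaled by library totals alone, COL4A5 changed sign to 0.07. The COL4A5 to COL4A6 ratio moved from 0.410, 0.430 and 0.423 to 0.435, 0.466 and 0.492 without overlap (log2 difference 0.14, exact permutation p = 0.1, adjusted over 8 pairs 0.16).

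**Figure D2:**
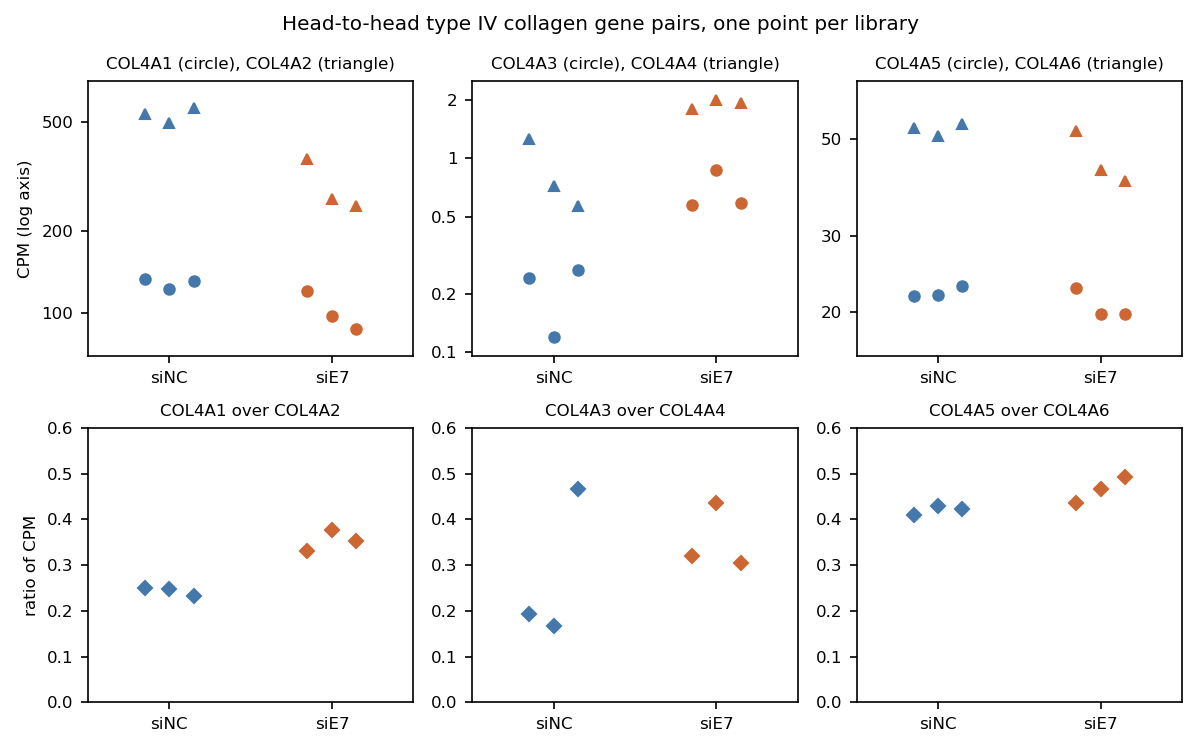
Level of the type IV chains in each library (top, CPM on a log axis, circles and triangles for the genes named above each panel) and the ratio of their CPM (bottom, linear axis from 0), for siNC (blue) and siE7 (orange). The COL4A2 triangles drop in siE7 further than the COL4A1 circles, both genes of the COL4A3 and COL4A4 panel sit higher in siE7, and the COL4A5 and COL4A6 points of siE7 replicate 1, the left orange points, sit level with siNC.

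Other collagens of the basement membrane zone went separate ways. COL7A1, the anchoring fibril chain, stood at 338, 327 and 341 CPM in siNC and 421, 357 and 339 CPM in siE7. siE7 replicate 1 was the highest of all libraries and siE7 replicate 3 lay inside the siNC range. Its log2FC was 0.15 (SE 0.113, edgeR adjusted p = 0.33), -0.01 without siE7 replicate 1, and 0.31 (edgeR adjusted p = 0.017) when libraries were scaled by their totals alone. COL18A1 (ENSG00000182871.16, chr21:45405165-45513720), the multiplexin whose C-terminal fragment is endostatin, had 30, 38 and 42 reads in siNC and 14, 11 and 5 reads in siE7, that is 1.22, 1.52 and 1.59 CPM and 0.472, 0.399 and 0.164 CPM. Every siE7 library was well below every siNC library. COL18A1 fell by 2.06 on the log2 scale (SE 0.417, edgeR adjusted p = 0.0032), the largest fall among the tested collagen genes, and stayed called under every alternative run (adjusted p at most 0.019). It shares 1563 exon bases (18.47%) with SLC19A1, the reduced folate carrier on the other strand, which had 147, 140 and 224 reads in siNC and 267, 217 and 207 in siE7 and was not called (log2FC 0.24, edgeR adjusted p = 0.40). COL15A1, the other multiplexin, had at most 8 reads in a library and was not tested. Over the 8 tested genes of types IV, VII and XVIII, 2 rose and 2 fell (25.0% each, against 18.0% and 16.0% of all tested genes), and without COL4A3 and COL18A1, which each entered the test through 1 group, 1 of 6 rose and 1 fell. These shares were near those of all genes.

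Among fibrillar collagens, 10 of 11 listed genes had a row and 7 were tested: COL5A2 and COL27A1 rose, and none fell by the test. Their median log2FC of 0.26 rested on single choices: it was 0.06 without siE7 replicate 1, 0.42 with library totals alone and -0.04 without COL11A2, which entered the test through siE7 only. COL5A2 (ENSG00000204262.14, chr2:189031898-189225312), the second chain of type V collagen, which starts and regulates fibrils, had 14, 14 and 31 reads in siNC and 93, 64 and 71 reads in siE7, or 0.567, 0.560 and 1.17 CPM against 3.14, 2.32 and 2.32 CPM. No siE7 library came near the siNC range, and siE7 replicate 1 was the highest. COL5A2 rose 3.35-fold (log2FC 1.74, SE 0.339, edgeR adjusted p = 0.0026), with log2FC between 1.52 and 2.19 when each library was left out in turn. COL5A1, the partner chain of COL5A2, was far more abundant at 202, 192 and 211 CPM in siNC and 190, 146 and 140 CPM in siE7. After TMM scaling siE7 libraries were the lower ones, replicate 1 only just, and the log2FC of -0.34 missed the threshold (SE 0.132, edgeR adjusted p = 0.064, and 1.1e-10 at a log2FC of -0.56 without siE7 replicate 1). Scaled by library totals alone the log2FC of COL5A1 was -0.18 (edgeR adjusted p = 0.19).

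Reads of COL5A1 outnumbered those of COL5A2 by 356, 342 and 180 to 1 in siNC and by 60.7, 63.0 and 60.3 to 1 in siE7. That was the widest shift of the 8 chain pairs, -2.19 on the log2 scale, and the groups did not overlap (exact permutation p = 0.1, adjusted over 8 pairs 0.16). Per kb of transcript, COL5A1 in siE7 was still at 18.8 ± 3.25 CPM and COL5A2 at 0.380 ± 0.0691 CPM (SD, n = 3). COL5A3, the third type V chain, had log2FC -1.11 (SE 0.424, edgeR adjusted p = 0.064), its siNC levels ranging from 0.681 to 1.46 CPM and its siE7 levels from 0.371 to 0.507 CPM.

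COL27A1 (ENSG00000196739.15, chr9:114155537-114312511), a fibrillar chain known from developing cartilage, stood at 55.4, 50.4 and 49.7 CPM in siNC and 74.0, 78.0 and 74.8 CPM in siE7. Libraries of each group lay close together and the groups were well separated. Its rise was 1.46-fold (log2FC 0.54, SE 0.109, edgeR adjusted p = 0.0029). The type I chains of bone and skin, COL1A1 (14.3 to 17.3 CPM in siNC, 15.3 to 21.7 CPM in siE7) and COL1A2 (1.98 to 2.44 CPM and 0.942 to 2.02 CPM), overlapped between groups and were not called (log2FC 0.26 and -0.40, edgeR adjusted p = 0.25 and 0.34), and COL1A1 stood at 0.06 without siE7 replicate 1. COL11A2, a cartilage chain, entered the test only through siE7 and was not called (log2FC 0.88, SE 0.515, edgeR adjusted p = 0.21). COL2A1, COL3A1 and COL24A1 had at most 9 reads in a library, so the planned ratio of COL3A1 to COL5A2 was not formed.

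FACIT genes were divided. Of 10 listed, 9 had a row and 4 were tested: COL12A1 and COL16A1 fell, COL9A3 rose and COL9A2 did not pass the test. COL12A1 (ENSG00000111799.22, chr6:75084326-75206267), which bridges collagen fibrils and other matrix, stood at 42.8, 44.8 and 47.5 CPM in siNC and 18.4, 16.1 and 14.6 CPM in siE7. Libraries of each group lay close together, with a wide gap between the groups. COL12A1 went from 45.0 ± 2.35 to 16.4 ± 1.88 CPM (SD, n = 3), log2FC -1.46 (SE 0.133, edgeR adjusted p = 1.8e-05), the lowest adjusted p of the collagen genes. COL16A1 (ENSG00000084636.18, chr1:31652263-31704319), found at the dermal-epidermal junction, stood at 9.72, 11.2 and 8.79 CPM in siNC and 5.60, 6.20 and 4.68 CPM in siE7. Here siE7 replicate 1 lay between the other siE7 libraries, and the groups did not overlap (log2FC -0.85, SE 0.183, edgeR adjusted p = 0.0045).

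The type IX genes encode chains of a single cartilage collagen. COL9A3 (ENSG00000092758.18, chr20:62816244-62841159) stood at 7.45, 7.21 and 6.97 CPM in siNC and 13.3, 10.3 and 12.2 CPM in siE7. siNC libraries were tightly grouped below all siE7 libraries, and COL9A3 rose 1.65-fold (log2FC 0.72, SE 0.165, edgeR adjusted p = 0.0059). It overlaps TCFL5 on the other strand over 155 bases (3.20% of its exons), and TCFL5, with 1843 to 2265 reads in each library, was not called (log2FC -0.12, edgeR adjusted p = 0.42). COL9A2 stood at 39.0, 39.1 and 42.3 CPM in siNC and 45.7, 38.7 and 36.5 CPM in siE7. The groups overlapped (log2FC 0.00, SE 0.126, edgeR adjusted p = 0.98), and without siE7 replicate 1 the log2FC was -0.16. The COL9A2 to COL9A3 ratio went from 5.23, 5.43 and 6.08 to 3.45, 3.76 and 3.0 without overlap (log2 difference -0.72, exact permutation p = 0.1, adjusted over 8 pairs 0.16).

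Beaded-filament collagen, type VI, surrounds cells in most tissues. Its chains COL6A1 and COL6A2 fell together and COL6A3 did not pass the test. COL6A1 (ENSG00000142156.16, chr21:45981770-46005050) stood at 119, 115 and 112 CPM in siNC and 68.2, 58.1 and 53.7 CPM in siE7. COL6A2 (ENSG00000142173.16, chr21:46098112-46132848) stood at 87.5, 80.7 and 87.9 CPM in siNC and 69.5, 49.7 and 43.2 CPM in siE7. For both genes the siE7 libraries were all below the siNC libraries, with siE7 replicate 1 the closest. Log2FC was -0.94 for COL6A1 (SE 0.120, edgeR adjusted p = 0.00019) and -0.66 for COL6A2 (SE 0.161, edgeR adjusted p = 0.0091). COL6A3, the large chain that completes the type VI molecule, stood at only 1.12 to 1.54 CPM in siNC and 1.34 to 1.70 CPM in siE7 (log2FC 0.17, SE 0.289, edgeR adjusted p = 0.68). Per kb of transcript COL6A3 reached 0.124 ± 0.0203 CPM in siNC, against 27.3 ± 0.836 CPM for COL6A1 and 24.8 ± 1.18 CPM for COL6A2 (SD, n = 3). COL6A1 lies 93061 bases from COL6A2 and 468049 bases from COL18A1 on the same strand of chromosome 21, and these neighbouring collagen genes were all lower in siE7.

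COL13A1 (ENSG00000197467.17, chr10:69801880-69964275), a transmembrane collagen of cell adhesion sites, stood at 3.24, 3.40 and 2.80 CPM in siNC and 1.32, 1.88 and 1.50 CPM in siE7. All siE7 libraries were below all siNC libraries, and the log2FC of -1.01 lay just past the fold condition for a DEG (SE 0.245, edgeR adjusted p = 0.0085). It ran from -1.16 to -0.95 with 1 library left out, so its DEG call depends on single libraries. The short-chain genes COL8A1 (log2FC -0.34, SE 0.164, edgeR adjusted p = 0.13) and COL8A2 (log2FC 0.26, SE 0.406, edgeR adjusted p = 0.64), which build hexagonal lattices under endothelia, were not called, and COL8A2 turned to -0.07 without siE7 replicate 1 while COL8A1 was then called (log2FC -0.38, edgeR adjusted p = 0.019).

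**Figure D3:**
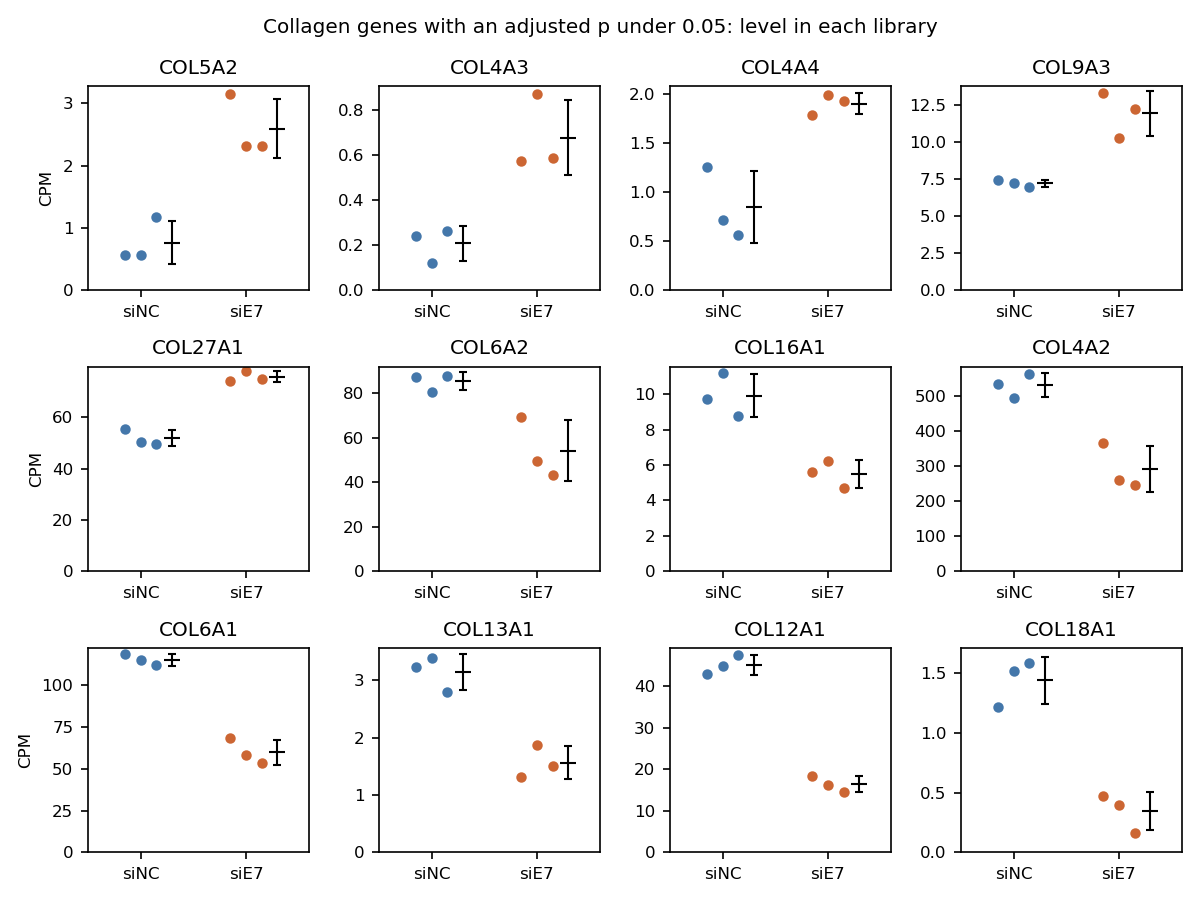
CPM (linear axes from 0) of the 12 collagen genes with an adjusted p under 0.05 in each library, siNC in blue and siE7 in orange in order of replicate number, with the mean and SD in black. The groups do not overlap in any panel, and the panels run from COL5A2, with the highest log2FC, to COL18A1, with the lowest.

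Side by side, 2 of 6 tested type IV genes rose and 1 fell, 2 of 7 fibrillar genes rose and 0 fell, and 1 of 4 FACIT genes rose and 2 fell, where 18.0% and 16.0% of all tested genes rose and fell and where COL4A3 had entered only through siE7. The medians were -0.17, 0.26 and -0.42, with log2FC from -0.87 to 1.66, from -1.11 to 1.74 and from -1.46 to 0.72. The ranges overlapped over most of their width. The FACIT median turned to 0.71 without the filter and 0.67 with DESeq2, which take in members of few reads, the type IV median went to 0.00 with library totals alone and -0.32 without siE7 replicate 1, and the fibrillar median moved as given above. A difference between the classes was not tested, and each class held genes on both sides of 0. Of the 8 chain pairs, the 3 not yet given were COL6A1 to COL6A2 (log2 difference of the ratio -0.26, exact permutation p = 0.1, adjusted over 8 pairs 0.16), COL1A1 to COL1A2 (0.74, p = 0.2, adjusted 0.27) and COL8A1 to COL8A2 (-0.62, p = 0.3, adjusted 0.34), of which the last 2 overlapped between groups. No pair could pass 0.05 with 3 against 3 libraries.

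The 12 collagen genes that were not tested were COL2A1, COL3A1, COL24A1, COL14A1, COL19A1, COL20A1, COL21A1, COL22A1, COL15A1, COL23A1, COL26A1 and COL28A1. They had 0 to 9 reads in a library and 1 to 22 reads over all 6. In sum they had 28 reads in siNC and 86 reads in siE7, and 9 of 12 had the higher total in siE7. COL28A1, a von Willebrand domain collagen of nerve, had the highest total, 0, 2 and 0 reads in siNC and 3, 9 and 8 in siE7. Counts this low allow no statement on single genes.

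Few genes held most collagen reads. The reads of all 37 genes summed to 1681, 1594 and 1719 CPM in siNC and 1511, 1221 and 1149 CPM in siE7. After TMM scaling siE7 was lower in every library, with replicate 1 the closest to siNC, from a mean of 1665 ± 63.9 to 1294 ± 191 CPM (SD, n = 3). The TMM factors were 0.9355 to 0.9539 in siNC and 1.004 to 1.099 in siE7. Scaled by library totals alone, siE7 replicate 1 lies above siNC replicate 2, so the groups overlap and the fall is smaller. COL4A2, COL7A1, COL5A1, COL4A1, COL6A1 and COL6A2 held 84.0% ± 0.375 of these reads in siNC and 80.2% ± 1.44 in siE7. The share of type IV genes was 44.3, 43.3 and 45.0% in siNC and 37.4, 34.7 and 34.5% in siE7. The type IV share was lower in every siE7 library, and COL4A2 alone went from 31.9% ± 0.881 to 22.4% ± 1.61, while the other type IV genes together went from 12.3% ± 0.160 to 13.2% ± 0.166. COL7A1 held 20.1, 20.5 and 19.8% of collagen reads in siNC and 27.8, 29.2 and 29.5% in siE7, a higher share in all siE7 libraries although its CPM overlapped between groups. Fibrillar genes went from 16.4% ± 0.0627 to 20.0% ± 0.621, FACIT genes from 6.16% ± 0.264 to 5.77% ± 0.233 and type VI genes from 12.1% ± 0.378 to 8.91% ± 0.334. Shares are of reads and sum to a fixed total, so they describe composition and were not tested.

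**Figure D4:**
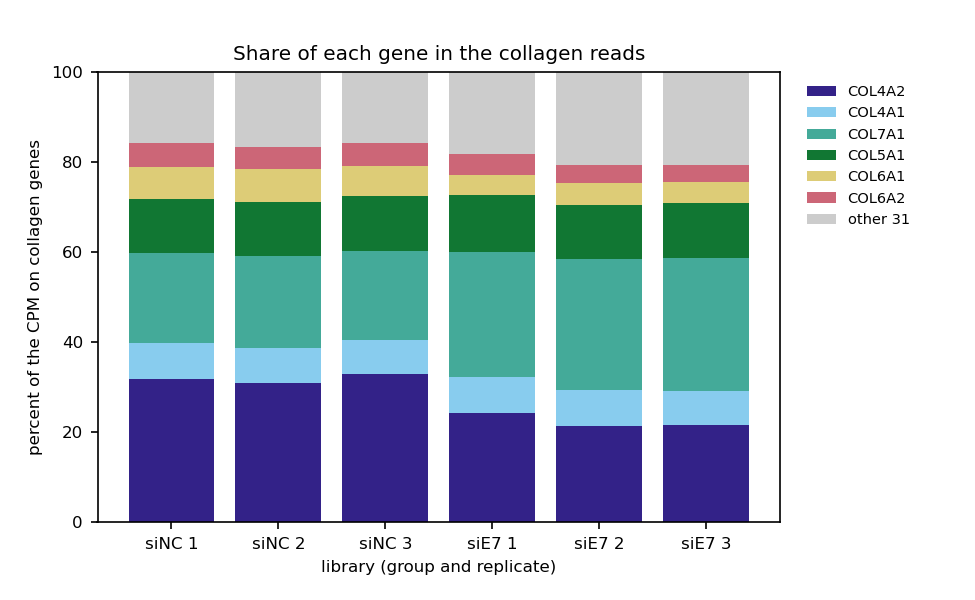
Percent of the CPM on all 37 collagen genes (vertical axis) taken by the 6 most abundant genes and by the other 31 together, one bar per library. The COL4A2 block is smaller in the siE7 bars (21.3 to 24.2%) than in the siNC bars (31.0 to 32.8%), and the COL7A1 block is larger (27.8 to 29.5% against 19.8 to 20.5%).

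Levels of different genes were ranked per kb of transcript, while the shares above are of reads and take no account of length. COL4A2 led in both groups, at 82.4 ± 5.37 CPM per kb in siNC and 45.2 ± 10.1 CPM per kb in siE7. COL7A1 came next in siNC (36.4 ± 0.785), then COL6A1 (27.3 ± 0.836), COL6A2 (24.8 ± 1.18) and COL5A1 (23.9 ± 1.14), the last pair within their spread. In siE7 COL7A1 (40.3 ± 4.64) and COL4A2 could no longer be ordered beyond their spread, and COL5A1 (18.8 ± 3.25), COL6A2 (15.7 ± 3.98), COL4A1 (15.6 ± 2.67) and COL6A1 (14.3 ± 1.77) followed within theirs. COL27A1 (6.64 ± 0.398 and 9.68 ± 0.273) moved above COL4A6 (7.90 ± 0.262 and 6.73 ± 0.948). Across the 25 tested collagen genes, Spearman's rho of log2FC was -0.27 with mean level, -0.21 with GC content and 0.26 with transcript length, and rho with level over all tested genes was -0.23. These describe genes that share the same libraries and are given without a test.

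Genes that modify, fold, export and crosslink collagen moved in both directions. Of 40 listed, 39 had a row and 33 were tested: 8 rose (24.2%, against 18.0% of all tested genes) and 6 fell (18.2%, against 16.0%) at an adjusted p under 0.05, shares not far from those of all genes, with 3 DEGs in each direction (9.09% each, against 7.38% and 4.84%) and a median log2FC of 0.00. One higher DEG, ADAMTS2, entered the test only through siE7, and over the 31 listed genes above the filter's CPM in all libraries 2 were higher DEGs (6.45%, against 5.52%) and 3 lower (9.68%, against 4.69%). The clearest contrast was among the 5 tested crosslinking enzymes. LOX rose (20.0%, against 18.0% of all tested genes) while LOXL1, LOXL2 and LOXL3 fell (60.0%, against 16.0%). PXDN, the remaining enzyme, overlapped between groups and was not called (log2FC -0.73, SE 0.374, edgeR adjusted p = 0.15). Without siE7 replicate 1 PXDN was a DEG lower in siE7 (log2FC -1.01, edgeR adjusted p = 0.022). LOX, lysyl oxidase, which oxidises lysines of fibrillar collagen, stood at 4.62, 4.04 and 3.03 CPM in siNC and 15.8, 15.3 and 13.4 CPM in siE7. All siE7 libraries were above all siNC libraries (log2FC 1.93, SE 0.193, edgeR adjusted p = 3.6e-05). Its relative LOXL1 stood at 8.83, 11.5 and 10.1 CPM in siNC and 4.39, 3.15 and 2.26 CPM in siE7, with no overlap in the other direction (log2FC -1.64, SE 0.240, edgeR adjusted p = 0.00045). LOXL3 (log2FC -1.17, SE 0.245, edgeR adjusted p = 0.0038) was the other crosslinking DEG, and LOXL2, the most abundant of them, fell without passing the fold condition (log2FC -0.84, SE 0.141, edgeR adjusted p = 0.0010). Without siE7 replicate 1 LOXL2 stood at a log2FC of -1.05 and passed that condition.

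Propeptide processing was split as well: of 5 tested genes 2 rose and 2 fell (40.0% each, against 18.0% and 16.0% of all tested genes). BMP1, the highest of them per kb, fell from 115 ± 1.17 to 82.9 ± 16.3 CPM (SD, n = 3; log2FC -0.47, SE 0.138, edgeR adjusted p = 0.021). Its adjusted p reached 0.079 in an alternative edgeR or DESeq2 run. ADAMTS2, the N-propeptidase of fibrillar procollagens, stood at 0.0810, 0.240 and 0.151 CPM in siNC and 0.945, 0.507 and 0.491 CPM in siE7, a difference at few reads (log2FC 2.01, SE 0.551, edgeR adjusted p = 0.016) whose call was lost without siNC replicate 1 (0.073) or siNC replicate 3 (0.065). PCOLCE, an enhancer of C-propeptide cleavage, rose (log2FC 1.18, SE 0.336, edgeR adjusted p = 0.019) but lost the call without siNC replicate 2 (0.080) or siNC replicate 3 (0.057), and TLL2, a tolloid-like protease, fell from 7.53 ± 0.730 to 2.44 ± 0.106 CPM (log2FC -1.62, SE 0.189, edgeR adjusted p = 9.7e-05). Of 12 tested prolyl and lysyl modification genes 2 rose, P4HA1 and P3H3 (16.7%, against 18.0% of all tested genes), and none fell. That none fell depended on siE7 replicate 1. Without it P4HA2, PLOD1, PLOD2, PLOD3, P3H4, CRTAP and COLGALT1 were lower at an edgeR adjusted p under 0.05 (log2FC -0.57 to -0.15). P4HA1 and P3H3 stayed higher. In that fit 29.5% of all tested genes were lower and 28.9% higher. Of 11 tested folding and secretion genes 3 rose, MIA2, MIA3 and FKBP14 (27.3%), and 1 fell, SEC24D (9.09%, against 16.0%). In alternative edgeR or DESeq2 runs the adjusted p reached 0.15 for P3H3, 0.20 for MIA3, 0.15 for FKBP14 and 0.051 for MIA2. FKBP14 overlapped between groups, with siE7 replicate 1 at 5.50 CPM and siNC at 4.33 to 7.23 CPM. Without siE7 replicate 1 MIA2 (log2FC 1.12) and FKBP14 (log2FC 1.13) were DEGs. SERPINH1, the collagen chaperone HSP47, stood at 160 to 162 CPM in siNC and 170 to 241 CPM in siE7 without passing the test (log2FC 0.29, edgeR adjusted p = 0.12). Its log2FC without siE7 replicate 1 was 0.06. Without siE7 replicate 1 the list held 5 DEGs higher and 6 lower in siE7, and scaling by library totals alone gave 6 higher. DEGs over all genes also grew in these fits. They numbered 1289 higher and 930 lower of 15011 without siE7 replicate 1, against 1082 and 710 of 14661 in the main test. With library totals alone 1532 of 14661 were higher.

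**Figure D5:**
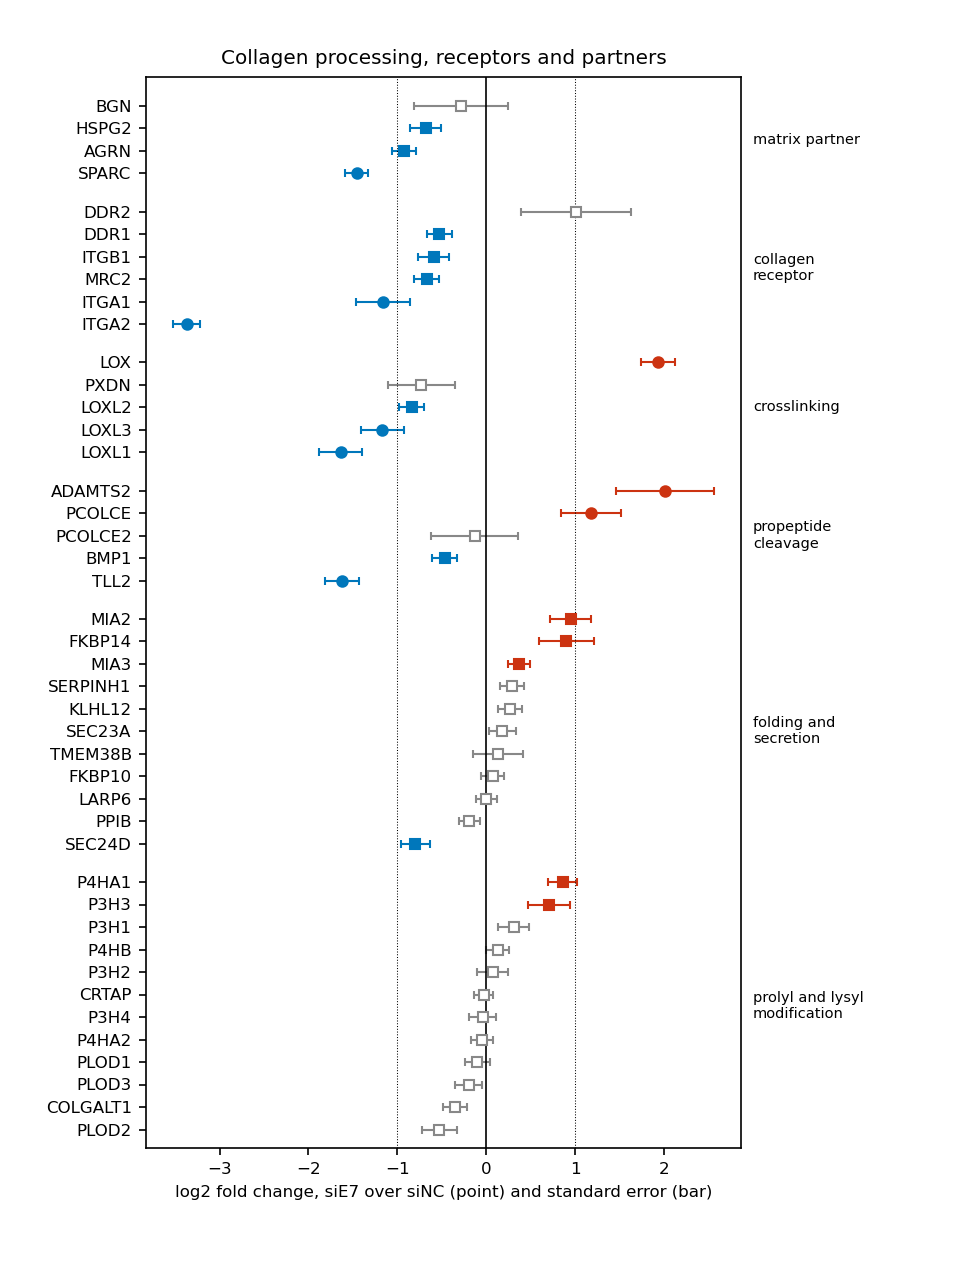
Log2 fold change of siE7 over siNC (points) with its standard error (bars) for the tested genes of collagen processing, receptors and matrix partners, by role (right), with symbols and colours as in the plot of the collagen genes. LOX, ADAMTS2 and PCOLCE lie to the right of 1, as does DDR2 at 1.01, which was not called, and ITGA2 lies farthest to the left, at -3.37.

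Receptors that bind collagen were mostly lower. Of 10 listed, 6 were tested and 5 fell at an adjusted p under 0.05 (83.3%, against 16.0% of all tested genes), with DDR2 not called (log2FC 1.01, SE 0.618, edgeR adjusted p = 0.23). DDR2, a collagen receptor kinase, had 7, 10 and 5 reads in siNC and 6, 30 and 15 in siE7. Without siE7 replicate 1 DDR2 was a DEG higher in siE7, opposite to the other tested receptors (log2FC 1.36, edgeR adjusted p = 0.039). Without siE7 replicate 2, the library with 30 reads, its log2FC was only 0.26 (edgeR adjusted p = 0.80). ITGA2, the alpha chain of the epithelial collagen-binding integrin, stood at 47.9, 42.5 and 38.5 CPM in siNC and 3.95, 4.20 and 4.28 CPM in siE7. The siE7 libraries agreed closely and lay roughly an order of magnitude lower (log2FC -3.37, SE 0.151, edgeR adjusted p = 2.5e-07). ITGA1, which pairs with the same beta chain and binds type IV collagen, was the other DEG (log2FC -1.16, SE 0.303, edgeR adjusted p = 0.013), lost its call without siNC replicate 3 (edgeR adjusted p = 0.065) and stood at -0.99 with library totals alone. ITGB1, DDR1 and MRC2 fell by 0.59, 0.53 and 0.67 on the log2 scale. In alternative edgeR or DESeq2 runs the adjusted p reached 0.13 for ITGB1 and 0.058 for DDR1, which lost their calls, and 0.024 for MRC2. For ITGB1 siE7 replicate 1 was the lowest library (61.8 CPM, against 107 and 101 CPM in the other siE7 libraries), and without it the log2FC was -0.44. Of 9 listed matrix partners 4 were tested and 3 fell (75.0%, against 16.0% of all tested genes). SPARC, a collagen-binding matricellular protein, stood at 70.8, 70.0 and 70.6 CPM in siNC and 29.2, 22.1 and 25.7 CPM in siE7 (log2FC -1.46, SE 0.129, edgeR adjusted p = 1.6e-05). The basement membrane proteoglycans AGRN (log2FC -0.93) and HSPG2 (log2FC -0.68) stood at -1.14 and -1.01 without siE7 replicate 1. Among the untested partners, NID1 (0, 0 and 4 reads in siNC, 10, 5 and 10 in siE7) and DCN (0, 1 and 2, against 8, 11 and 19) were higher in siE7 without overlap. FMOD (3, 6 and 2, against 1, 1 and 1) was lower without overlap. SPARC levels within each group were close and the groups lay far apart.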

How the data were processed

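RNA of 3 siNC and 3 siE7 libraries of SCC-9 cells was sequenced by the authors as stranded poly(A) libraries on a NovaSeq 6000. The deposited table holds raw read counts per gene, made by the authors, without normalization. The submitters' processing notes name HISAT2, DESeq2 and GRCh38 without roles; the counting tool, annotation and use of strand are not given in the sources used here. All sample columns were used.

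Counts were tested with edgeR 4.0.16 (R 4.3.3): filterByExpr (minimum count 10, here 0.368 CPM in 3 libraries), TMM, robust quasi-likelihood fit, Benjamini-Hochberg adjustment over 14661 of 25349 genes. The fit was checked on simulated counts. edgeR replaces the study's DESeq2 as the main test for counts; DESeq2 1.42.0 was an alternative, with other scalings, no filter, a replicate block and each library left out. Total counts of 25608192 to 29550264 per library limit precision for genes with few reads. Chain ratios were compared by exact permutation in Python with scipy 1.17.1. Gene positions, overlaps and canonical transcript lengths came from GENCODE 44 (GRCh38; 25283 of 25349 identifiers matched without version).

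Members, lists and tests were chosen with earlier results of these data known. Values per library are given for called genes, type IV chains, their partners and the 5 members highest per kb, and DEGs are named from the processing, receptor and matrix partner lists. CDH1, EPCAM, PERP, KRT14, SFN, PDGFRA, PDGFRB, DCN, DDR2, P4HA1, P3H3, MIA2, MIA3, FKBP14, SEC24D, SERPINH1, LOXL2, ITGB1, DDR1, MRC2, AGRN and HSPG2 were named after their values were seen. So were THY1, POSTN, LUM, DPT, FAP, FBLN1, MFAP5, BMP1, NID1 and FMOD. The same holds for P4HA2, PLOD1, PLOD2, PLOD3, P3H4, CRTAP, COLGALT1 and PXDN.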

Additional observations from a re-analysis of the deposited data

How the results depend on the processing

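All 12 collagen calls were kept under RLE size factors, library totals alone, no filter and the replicate block, and 11 with DESeq2, where COL4A3 had an adjusted p of 0.076. The replicate numbers did not pair samples (correlations of same-numbered deviations -0.0393, -0.0205 and -0.0521), and with the replicate block COL9A2 stood at 0.00 with its sign turned and 3 collagen DEGs stood in each direction. Leaving out 1 library gave 1 to 3 collagen DEGs higher in siE7, 3 to 5 collagen genes higher and 7 to 12 lower at an adjusted p under 0.05, and 2 to 5 processing DEGs higher and 2 to 6 lower. Over all tested genes the same fits gave 908 to 1289 DEGs higher and 665 to 930 lower. Library totals alone, which raised the median of all genes by 0.169 and the share of DEGs that were higher from 60.4% to 76.2%, gave 6 processing DEGs higher, a type IV median of 0.00 and a FACIT median of -0.26. The FACIT median was 0.71 without the filter and 0.67 with DESeq2, which test more genes of low count. With a library left out the type IV median ran from -0.32 (without siE7 replicate 1) to -0.11. Signs turned for COL4A5 (0.07, library totals), COL7A1 (-0.01 without siE7 replicate 1, and up to 0.21 without another library), COL8A2 (-0.07 without siE7 replicate 1, and up to 0.58 without another library) and COL9A2 (-0.04 with RLE, -0.01 without the filter, -0.05 with DESeq2, and -0.16 to 0.07 with a library left out). COL4A1 and COL5A1 were called lower without the filter and with DESeq2. Low read counts limit COL4A3, COL4A4, COL18A1 and COL5A2.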
